A study of Mus musculus with 6 samples.

Results

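Pleiotrophin (Ptn), its relative midkine (Mdk) and 7 cell-surface proteoglycans, the syndecans Sdc1, Sdc2, Sdc3 and Sdc4 and the glypicans Gpc1, Gpc3 and Gpc4, were followed across 6 expression arrays of a mouse mammary tumour culture. They are 9 genes of the 16702 that could be tested, and were read by 15 of the 41174 probes on the array, taken by gene name. Ptn was selected on its change in these same arrays, the largest fall among named genes, so that change is described below and was not tested. The other 8 genes were taken as its relative and as carriers of the heparan sulphate chains that bind it.

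One group of cultures was transfected with 30 nM of pre-miR-16, a precursor of the microRNA miR-16, and the other with 30 nM of pre-miR-Control, a scrambled precursor that gives rise to no known mammalian microRNA. Both groups were primary cultures of C4HD, a hormone-dependent, ErbB-2 positive ductal tumour that arose in female BALB/c mice given the progestin medroxyprogesterone acetate and is passed on by transplantation into mice given the same progestin. Cells were the epithelium-enriched fraction left after repeated sedimentation, and RNA was taken 48 h after transfection. There were 3 biological replicates per group, 1 single-colour array each, and the number of arrays limits the precision. The animals or tumours behind each replicate are not given in the sources used here, and the age of the mice is not either.

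Pleiotrophin and midkine are the 2 members of a family of small secreted growth factors that bind heparin. They act through receptors on the cell surface, among them the receptor tyrosine phosphatase Ptprz1, the receptor tyrosine kinase Alk and the endocytic receptor Lrp1, and bind the heparan sulphate chains of proteoglycans on the same surface. Syndecans span the membrane and bind adaptor proteins inside the cell, whereas glypicans are held in the outer leaflet of the membrane by a lipid anchor. In the mammary gland Sdc1 is known as the syndecan of epithelial cells, and Sdc2 as one of mesenchymal cells.

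The transfected precursor yields miR-16-5p, which is shown because its seed (bases 2 to 8, in capitals) is the part that pairs with targets. RefSeq (GRCm38.p6) places the mature sequence at chr3:69009918-69009939 on the plus strand and at chr14:61631936-61631957 on the minus strand.
miR-16-5p: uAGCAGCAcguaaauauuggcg
The DNA letters that would pair with this seed, TGCTGCT, were in 0 of the 15 probes of the 9 genes and in 0.544% of all probes. A probe covers a short stretch of its transcript, so this says nothing of the rest of it.

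The probes of the 2 growth factors are shown because they read opposite changes. With 3 bases of the Ptn probe unpaired at its start, 34 of 57 overlapping bases were identical (59.6%) between the Ptn probe A_52_P10793 and the Mdk probe A_51_P453635, and these bases are in capitals.
Ptn: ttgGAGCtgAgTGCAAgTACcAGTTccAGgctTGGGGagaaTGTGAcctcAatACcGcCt
Mdk: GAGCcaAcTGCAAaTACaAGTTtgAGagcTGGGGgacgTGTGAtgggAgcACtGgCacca
By the array's own annotation (mm7), the Ptn probe lies at chr6:36672972-36674918 on the minus strand. That span is 1947 bases for a probe of 60, so it crosses an intron. The Mdk probe lies at chr2:91780364-91780574 on the minus strand, a span of 211 bases. The brighter Mdk probe, A_51_P225665, lies at chr2:91780582-91780641 and shared 18 of 60 bases (30.0%) with the Ptn probe when laid end to end.

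The 75th percentile of the processed signal was 626 to 911 scanner units on the 6 arrays, 57.2% to 64.0% of spots were well above background and 0 were saturated. Levels below are log2 signals minus that percentile, changes are differences of group means on the same log2 scale, pre-miR-16 over pre-miR-Control, and a gene was called at an adjusted p (limma, Benjamini-Hochberg over all 16702 genes) under 0.05. Of all genes, 49.1% were called, 16% as rises and 33.1% as falls, and the median change was -0.20. Slide 1 held replicate 1 of both groups, slide 2 held pre-miR-16 replicate 2 and pre-miR-Control replicates 2 and 3, and slide 3 held pre-miR-16 replicate 3 alone. Relative to that percentile, the spike-in probes read 3.64, 3.55 and 3.28 in pre-miR-16 cultures and 3.95, 3.86 and 3.80 in pre-miR-Control cultures. Scaling on them raised every change by 0.38.

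The cultures carried transcripts that mark epithelium, as labelled, and transcripts that mark other cell types, at levels that differed between the groups. All 8 luminal epithelial markers were well above background on all 6 arrays, with a summed level of 594 to 627 times the 75th percentile in pre-miR-16 cultures and 997 to 1134 times in pre-miR-Control cultures. All 8 fell, with a median change of -0.66, but 2 of 8 fell with spike-in scaling (median -0.27). The 8 fibroblast markers all rose (median change 4.02), with a summed level of 291 to 380 times the 75th percentile in pre-miR-16 cultures and 36.3 to 41.8 times in pre-miR-Control cultures. Of the 8 macrophage and leukocyte markers, 7 rose and 0 fell (median 4.82, or 4.23 with Ptprc at its bound), at 181 to 242 times the percentile against 7.33 to 11.6 times. The other, Csf1r, was lower in pre-miR-16 cultures and not called (-0.51 ± 0.26, SE, adjusted p = 0.144, limma). Without pre-miR-16 replicate 2 there was 1 fall in this list. The summed level follows mostly Lyz2, with a mean level of 7.60 in pre-miR-16 and 2.74 in pre-miR-Control cultures. The next marker in pre-miR-16 cultures was Adgre1, at 2.77. On the pre-miR-Control arrays Ptprc, the pan-leukocyte marker, was at no point well above background. At the brightest probe, 4 of these 8 markers were well above background on all 3 pre-miR-Control arrays. The rest passed the filter through the pre-miR-16 arrays alone. With just probes well above background on all 6 arrays, 3 of 4 rose, with a median change of 2.65. Of the basal and myoepithelial markers 2 of 5 measured rose, Acta2 (3.36) and Cnn1 (4.04). The keratins Krt14 (-1.95) and Krt17 (-1.83) fell, Krt5 was not called, and Trp63 was not well above background in either group. The list summed to 261 to 375 times the 75th percentile in pre-miR-16 cultures against 115 to 150 times in pre-miR-Control cultures. That sum rose although both called keratins fell. Of the neural and glial markers 0 of 3 rose and 1 fell (0 with spike-in scaling), at 23.7 to 24.2 times the percentile against 35.2 to 39.3 times. Of the 5 endothelial markers, 0 stood well above background in a pre-miR-16 culture, and Pecam1 did in 1 pre-miR-Control culture. The part of these shifts in the changes of the 9 genes was not tested. In bulk cultures a change in the number of cells of a type and a change in marker RNA per cell cannot be told apart.

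The growth factors moved in opposite directions: Ptn was far lower in pre-miR-16 cultures than in pre-miR-Control cultures, and Mdk was higher. Ptn gave a level of -5.10, -2.57 and -5.38 in pre-miR-16 replicates 1 to 3, against 0.94, 0.70 and -0.10 in pre-miR-Control replicates 1 to 3. In scanner units before scaling, these were 21.7, 124 and 21.8 in pre-miR-16 cultures and 1201, 1054 and 650 in pre-miR-Control cultures. The groups did not overlap. Within the pre-miR-16 group replicate 2 stood 2.67 above the mean of the other two, while those differed by 0.28.

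The mean level of Ptn was -4.35 ± 1.55 in pre-miR-16 cultures and 0.51 ± 0.54 in pre-miR-Control cultures (SD, n = 3 each). The change was -4.86, or 29.1-fold lower, which ranked 1 among the falls of all 16702 genes. It was -6.04 within slide 1 and -2.87 within slide 2, where replicate 2 was. Without pre-miR-16 replicate 2 it was -5.75. Ptn passed the filter on dim probes through its pre-miR-Control arrays: of the pre-miR-16 arrays 2 of 3 read it well above background, replicate 3 did not, and the size of the change rests on signals near background. Background correction by normexp gave -3.45, and the deposited log2 table gave -3.38.

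Mdk rose. Its level was -0.17, 0.09 and 0.07 in pre-miR-16 replicates 1 to 3, against -1.23, -1.32 and -1.51 in pre-miR-Control replicates 1 to 3. Every pre-miR-16 array was above every pre-miR-Control array. The change was 1.35 ± 0.12 (SE, 95% interval 1.06 to 1.65), which is 2.55-fold, with an adjusted p of 4.13e-04 (limma). It was 1.06 within slide 1 and 1.50 within slide 2.

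The dimmer Mdk probe, the one whose sequence matched that of Ptn in part, read -1.75, -1.53 and -1.77 in pre-miR-16 cultures and -3.79, -4.65 and -4.83 in pre-miR-Control cultures. Its change was 2.74 ± 0.27 (SE, adjusted p = 6.66e-04 over all probes, limma). Both Mdk probes therefore read a rise, by different amounts: 1.35 at the brighter probe and 2.74 at the dimmer. In scanner units the dimmer probe read 45.2, 26.0 and 24.5 in pre-miR-Control replicates 1 to 3. The size of its change rests on these dim signals. The 2 probes differed in change by 1.39 on the log2 scale, and an exact permutation test of the arrays (two-sided) gave p = 0.1, the smallest that 3 arrays against 3 allow (adjusted p = 0.167 over the 5 genes with a pair of probes). The mean of both probes, dim signals included, gave 2.04.

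**Figure D1:**
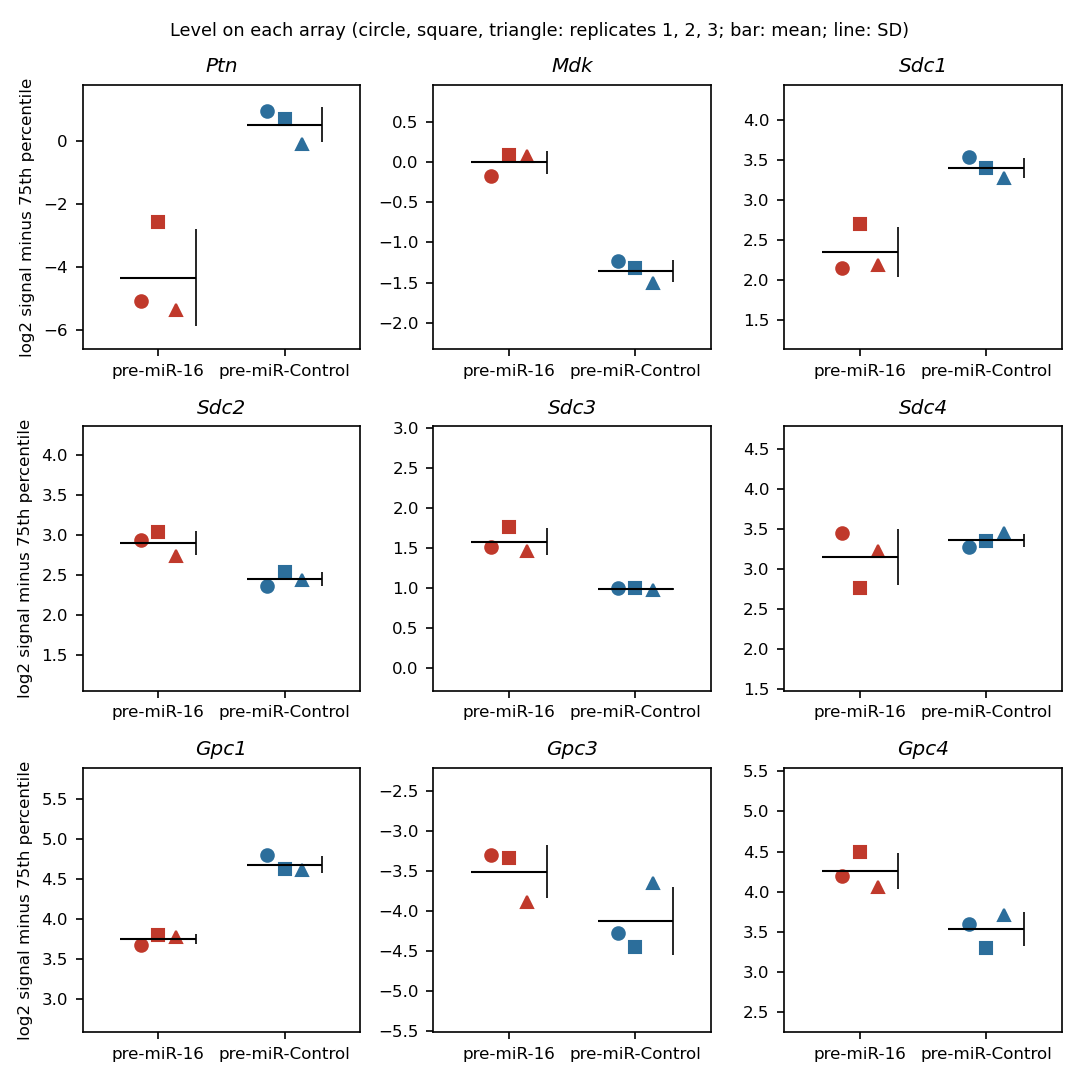
Log2 level relative to the array's 75th percentile (vertical axis, its own range in each panel) of the 9 genes in pre-miR-16 (red, left) and pre-miR-Control (blue, right) cultures, 1 point per array, with the mean as a bar and the SD as a line. Ptn lies at -5.38 to -2.57 in pre-miR-16 cultures and -0.10 to 0.94 in pre-miR-Control cultures, and the groups overlap in Sdc4 and Gpc3.

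Beyond Ptn, 4 of the 8 other genes rose (Mdk, Sdc2, Sdc3 and Gpc4), 2 fell (Sdc1 and Gpc1) and 2 were not called (Sdc4 and Gpc3), where 16% of all genes rose and 33.1% fell. All 8 were well above background on all 6 arrays. In 6 of the 8 the groups did not overlap, beside 61.4% of all genes. With spike-in scaling 5 rose and the same 2 fell.

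Among the syndecans, Sdc1 fell while Sdc2 and Sdc3 rose at their brightest probes. Sdc1, known as the main syndecan of epithelial cells and read at chr12:8818810-8818869 (mm7, plus strand), had levels of 2.16, 2.70 and 2.19 in pre-miR-16 replicates 1 to 3. The pre-miR-Control replicates had 3.53, 3.39 and 3.27. The groups did not overlap, and pre-miR-16 replicate 2 was the highest of its group, by 0.53 over the mean of the other two. The change was -1.05 ± 0.17 (SE, 95% interval -1.47 to -0.63, adjusted p = 0.0040, limma), and mean levels were 2.35 ± 0.31 and 3.40 ± 0.13 in pre-miR-16 and pre-miR-Control cultures (SD, n = 3 each). Within slide 1 it was -1.38 and within slide 2 it was -0.63. Spike-in scaling reduced it to -0.66, still called (adjusted p = 0.0344).

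Sdc2, a syndecan known from fibroblasts and other mesenchymal cells, was read by a pair of probes that did not match. At the brightest probe, A_51_P292403 (chr15:33141162-33141221, plus strand, mm7), the level was 2.93, 3.04 and 2.74 in pre-miR-16 replicates and 2.37, 2.54 and 2.44 in pre-miR-Control replicates, without overlap. The change was 0.45 ± 0.11 (SE, 1.37-fold, adjusted p = 0.0172, limma), and 0.56 and 0.55 within slides 1 and 2. The probe A_51_P157255, 1910 bases further along on the same strand, gave 2.25, 2.50 and 2.29 in pre-miR-16 replicates and 2.46, 2.64 and 2.61 in pre-miR-Control replicates. There the change was -0.22 (95% interval -0.49 to 0.05) with an adjusted p of 0.148, so it was not called.

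The difference of 0.67 between the Sdc2 probes gave an exact two-sided permutation p of 0.1, the smallest possible (adjusted p = 0.167). Of the 15 probes of the 9 genes, only A_51_P292403 held the letters AATAAA, the usual polyadenylation signal, from its base 49. Of all probes, 4.78% held them. The rise of Sdc2 was lost in the mean of both probes (0.12, adjusted p = 0.391), with median centring (0.37, adjusted p = 0.109), with no filter on dim probes (adjusted p = 0.0553) and without any 1 of 3 arrays: pre-miR-Control 1 (adjusted p = 0.0560), pre-miR-Control 3 (adjusted p = 0.0575) or pre-miR-16 1 (adjusted p = 0.0567). Spike-in scaling gave 0.84.

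Sdc3, best known from the nervous system, had levels of 1.52, 1.77 and 1.46 in pre-miR-16 replicates against 1.00, 1.00 and 0.97 in pre-miR-Control replicates at its brightest probe, A_52_P282741 (chr4:130040519-130040578, plus strand, mm7). The pre-miR-Control values lay close together, and every pre-miR-16 value was above them. The change was 0.59 ± 0.11 (SE, 1.50-fold, adjusted p = 0.0061, limma), with 0.52 and 0.78 within slides 1 and 2. Another probe, A_52_P485142 (chr4:130037404-130037463), gave 0.07 (95% interval -0.37 to 0.51, adjusted p = 0.776), and A_51_P347494 was not kept, being well above background in 0 of 3 pre-miR-16 and 1 of 3 pre-miR-Control cultures. The change at the brightest probe was 0.52 above that at the other (exact two-sided permutation p = 0.1, the smallest possible, adjusted p = 0.167). The mean of both kept probes was not called (0.33, adjusted p = 0.0885), and spike-in scaling gave 0.97.

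Sdc4, a widely expressed syndecan of focal adhesions, was not called. Its level was 3.45, 2.76 and 3.22 in pre-miR-16 replicates and 3.27, 3.35 and 3.44 in pre-miR-Control replicates at A_51_P323248 (chr2:164165270-164165329, minus strand, mm7). The groups overlapped, and pre-miR-16 replicate 2 was the lowest, 0.58 below the mean of the other two. The change was -0.21 ± 0.18 (SE, 95% interval -0.66 to 0.24, adjusted p = 0.377, limma), and it was 0.18 within slide 1 and -0.63 within slide 2. The other probe, A_52_P93467 (chr2:164166365-164166424), showed the same low array, with 2.38, 1.33 and 2.32 in pre-miR-16 replicates against 2.39, 2.28 and 2.20 in pre-miR-Control replicates. Its change was -0.28 (95% interval -0.97 to 0.41).

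**Figure D2:**
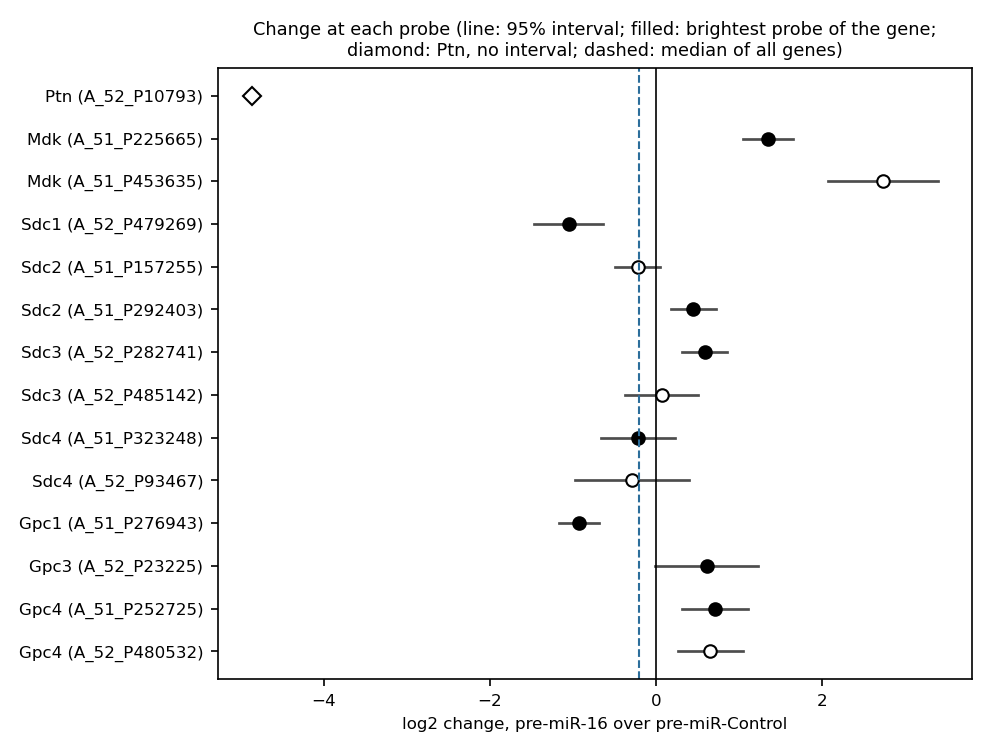
Log2 change, pre-miR-16 over pre-miR-Control (horizontal axis), at each of the 14 kept probes of the 9 genes, with the 95% interval as a line and the probe used for the gene filled. Both probes of Mdk lie right of 0 (1.35 and 2.74), the Sdc2 probes lie on either side of it (0.45 and -0.22), and the dashed line marks the median of all genes (-0.20).

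Of the glypicans, Gpc1 fell and Gpc4 rose. Gpc1, a widely expressed glypican (chr1:92767943-92768002, plus strand, mm7), had levels of 3.68, 3.80 and 3.77 in pre-miR-16 replicates against 4.80, 4.63 and 4.61 in pre-miR-Control replicates. The groups did not overlap. The change was -0.93 ± 0.10 (SE, 95% interval -1.16 to -0.69, adjusted p = 7.27e-04, limma), and -1.11 and -0.82 within slides 1 and 2. Spike-in scaling gave -0.54, still called (adjusted p = 0.0484).

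Gpc4, read on the X chromosome at chrX:47145463-47145522 (minus strand, mm7), had levels of 4.20, 4.50 and 4.06 in pre-miR-16 replicates and 3.59, 3.29 and 3.71 in pre-miR-Control replicates. The groups did not overlap. The change was 0.72 ± 0.16 (SE, 95% interval 0.32 to 1.12, 1.65-fold, adjusted p = 0.0130, limma). It was 0.60 within slide 1 and 1.00 within slide 2, and 1.10 with spike-in scaling. The dimmer probe A_52_P480532 (chrX:47143404-47143463) gave 1.67, 2.04 and 1.72 in pre-miR-16 replicates and 1.08, 0.96 and 1.40 in pre-miR-Control replicates, a change of 0.66 (adjusted p = 0.0174 over all probes, limma). The Gpc4 probes differed in change by 0.06 and the Sdc4 probes by 0.07 (exact two-sided permutation p = 0.5 and 0.6, adjusted p = 0.6 for both).

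Gpc3, a glypican of embryonic tissues that neighbours Gpc4 on the X chromosome (chrX:47364815-47364874, minus strand, mm7), was dim and was not called. It had levels of -3.31, -3.33 and -3.89 in pre-miR-16 replicates and -4.27, -4.45 and -3.65 in pre-miR-Control replicates, and the lowest pre-miR-16 array lay below the highest pre-miR-Control array. The change was 0.61 ± 0.26 (SE, 95% interval -0.01 to 1.24, adjusted p = 0.0938, limma), with 0.97 and 0.72 within slides 1 and 2. It was called with spike-in scaling (1.00, adjusted p = 0.0145) and without pre-miR-Control replicate 3 (0.85, adjusted p = 0.0330). With normexp it was 0.14.

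Of the glypicans outside these 3, Gpc6 alone was measured, and it was dim. Its kept probe was well above background in 3 of 3 pre-miR-16 cultures and 1 of 3 pre-miR-Control cultures, so it passed the filter through the group where it was higher, and its change is not read as support for a rise. That change was 1.44 ± 0.42 (SE, adjusted p = 0.0309, limma), and 0.30 with normexp (adjusted p = 0.0905). Its call was also lost without any 1 of 4 arrays, at adjusted p of 0.0905 without pre-miR-Control 2, 0.0722 without pre-miR-Control 3, 0.0925 without pre-miR-16 1 and 0.0911 without pre-miR-16 3. Gpc2 and Gpc5 did not pass the filter on dim probes.

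Of the other carriers of heparan sulphate 4 of 6 measured rose and 2 fell, with a median change of 0.92 beside -0.20 for all genes. The 10 listed carriers had 9 on the array. Cd44, the hyaluronan receptor, some forms of which carry heparan sulphate, rose by 1.04 ± 0.12 (adjusted p = 0.00111, limma), while its other 2 probes gave 0.80 and -0.07. Srgn, the proteoglycan of secretory granules in blood cells, rose by 2.82 ± 0.42 (adjusted p = 0.00276). Agrn, a proteoglycan of basement membranes, changed by -0.59 ± 0.09 (adjusted p = 0.00370), a fall that was not called with spike-in scaling (-0.20, adjusted p = 0.435). With that scaling 4 of the 6 rose and 0 fell, and without pre-miR-Control replicate 2 or 3 there was 1 fall. Among the rises Nrp1, which is also on the list of receptors, passed the filter on dim probes through the pre-miR-16 arrays alone. Counting just probes well above background on all 6 arrays left 5 carriers, of which 3 rose and 2 fell.

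Receptors and partners of the 2 growth factors went both ways. Of 14 measured genes 5 rose, 4 fell and 5 were not called (median 0.14), and with spike-in scaling 6 rose and 2 fell. Counting just probes well above background on all 6 arrays, 4 of 13 rose and 4 fell. Among the rises, Itgb3 (1.85) and Itgb1 (0.49) each had another probe, well above background on all 6 arrays, that was not called. Those gave -0.14 (adjusted p = 0.405) and -0.01 (adjusted p = 0.970, both over all probes, limma). With the mean of the probes of a gene 7 of 14 rose and 4 fell. Nrp2, a neuropilin, rose by 3.55 ± 0.11 to a level of 2.09 ± 0.16 in pre-miR-16 cultures, against -1.46 ± 0.08 in pre-miR-Control cultures (SD, n = 3 each, adjusted p = 1.19e-05, limma). Lrp1 rose by 2.25 ± 0.22 (adjusted p = 6.31e-04, limma), and its other probe gave 0.87 (adjusted p = 0.0113 over all probes). Itga6, an integrin subunit of laminin receptors, changed by -0.81 ± 0.09 (adjusted p = 9.43e-04, limma), and by -0.43 without a call under spike-in scaling (adjusted p = 0.123). Its other 2 probes gave -1.35 and -0.18.

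The receptors best known for pleiotrophin, Alk and Ptprz1, were added after their values were seen. Alk fell by 1.43 on the log2 scale (SE 0.25, adjusted p = 0.00475, limma), with levels of -4.19 ± 0.37 in pre-miR-16 cultures and -2.76 ± 0.34 in pre-miR-Control cultures (SD, n = 3 each). Its change was -0.85 with normexp. Ptprz1 was bright in both groups, 8.98 ± 0.26 in pre-miR-16 and 9.07 ± 0.09 in pre-miR-Control cultures (SD, n = 3 each), and was not called (-0.10 ± 0.15, adjusted p = 0.613). The other Ptprz1 probe, A_51_P206405, was dim, with levels of -2.44 ± 0.38 in pre-miR-16 cultures and -7.05 ± 0.17 in pre-miR-Control cultures, where 0 of 3 arrays read it well above background. It was kept through the pre-miR-16 arrays alone, and no fold is given for it.

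Of 10 measured genes of the linker and chain synthesis 3 rose and 3 fell (median -0.09), and with spike-in scaling 4 rose and 0 fell. There was 1 rise without any 1 of pre-miR-Control replicates 1, 2 and 3 or pre-miR-16 replicate 1, and 1 fall without pre-miR-Control replicate 3. Ext1, a subunit of the chain polymerase, rose by 0.94 ± 0.09 (adjusted p = 5.86e-04, limma). The linker enzymes B3galt6 and B3gat3 changed by -0.59 ± 0.09 (adjusted p = 0.00364) and -0.38 ± 0.09 (adjusted p = 0.0150), and neither was called with spike-in scaling, at -0.21 and 0.01. At its brightest probe B3gat3 was also not called without pre-miR-Control replicate 2 (adjusted p = 0.0665) or 3 (adjusted p = 0.0590). The B3gat3 probes A_52_P201315 and A_52_P506344 gave -1.01 and -0.42 (adjusted p = 4.59e-04 and 0.0120 over all probes, limma).

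Among 12 measured modification genes 4 rose and 4 fell (median -0.17), and with spike-in scaling 4 rose and 2 fell. There were 2 falls without pre-miR-16 replicate 1 or 3, 1 without pre-miR-Control replicate 2, and 1 with slide as a block. Hs6st2, a 6-O-sulphotransferase, rose by 4.24 ± 0.16 (adjusted p = 1.39e-05, limma), with levels of 1.83 ± 0.26 in pre-miR-16 cultures and -2.41 ± 0.14 in pre-miR-Control cultures. Hs3st3b1, a 3-O-sulphotransferase, fell by 2.82 on the log2 scale (SE 0.33, adjusted p = 0.00111, limma), with levels of -1.09 ± 0.68 in pre-miR-16 cultures and 1.73 ± 0.09 in pre-miR-Control cultures. Glce, the epimerase that turns glucuronic into iduronic acid, rose by 0.54 ± 0.09 (adjusted p = 0.00381). Papss2, which makes the sulphate donor, is counted among the rises but did not stand well above background in the pre-miR-Control cultures, so it passed the filter through the pre-miR-16 group alone. Its signal was at least 2.98-fold higher in pre-miR-16 cultures, and without it 3 of 11 genes rose and 4 fell.

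Of 11 measured genes that release or remodel the proteoglycans, 6 rose and 1 fell, with a median change of 1.01. With spike-in scaling 7 rose and 0 fell. The gelatinases Mmp2 and Mmp9 rose by 5.16 ± 0.19 (adjusted p = 1.44e-05, limma) and 4.42 ± 0.30 (adjusted p = 1.21e-04). Timp3, an inhibitor of such metalloproteinases, rose by 4.79 ± 0.30 (adjusted p = 9.14e-05). Mmp7, a matrix metalloproteinase, likewise passed the filter through the pre-miR-16 group alone, with a signal at least 3.53-fold higher in pre-miR-16 cultures. Without it 5 of 10 genes rose and 1 fell (median 0.66). There were 2 falls without pre-miR-16 replicate 2. Fibroblast and macrophage markers rose beside these genes, with the summed levels given above, and their part was not tested.

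Of 9 adaptors and partners of syndecans inside the cell, 4 fell and 1 rose (median -0.26), but with spike-in scaling there was 1 fall and 1 rise. The rise was absent without any 1 array other than pre-miR-16 replicate 2, and 2 genes rose without that replicate. Sdcbp2 (syntenin-2) fell by 1.37 on the log2 scale (SE 0.16, adjusted p = 0.00118, limma). Sdcbp (syntenin-1), the PDZ adaptor of all syndecans, changed by -0.57 ± 0.08 (adjusted p = 0.00262), and Synj2bp by -0.45 ± 0.11 (adjusted p = 0.0145). Neither of these was called with spike-in scaling, at -0.19 and -0.07. The dimmer kept probes of Synj2bp gave -0.95, -0.54 and -0.30 (adjusted p = 0.0035, 0.0104 and 0.0487 over all probes, limma).

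**Figure D3:**
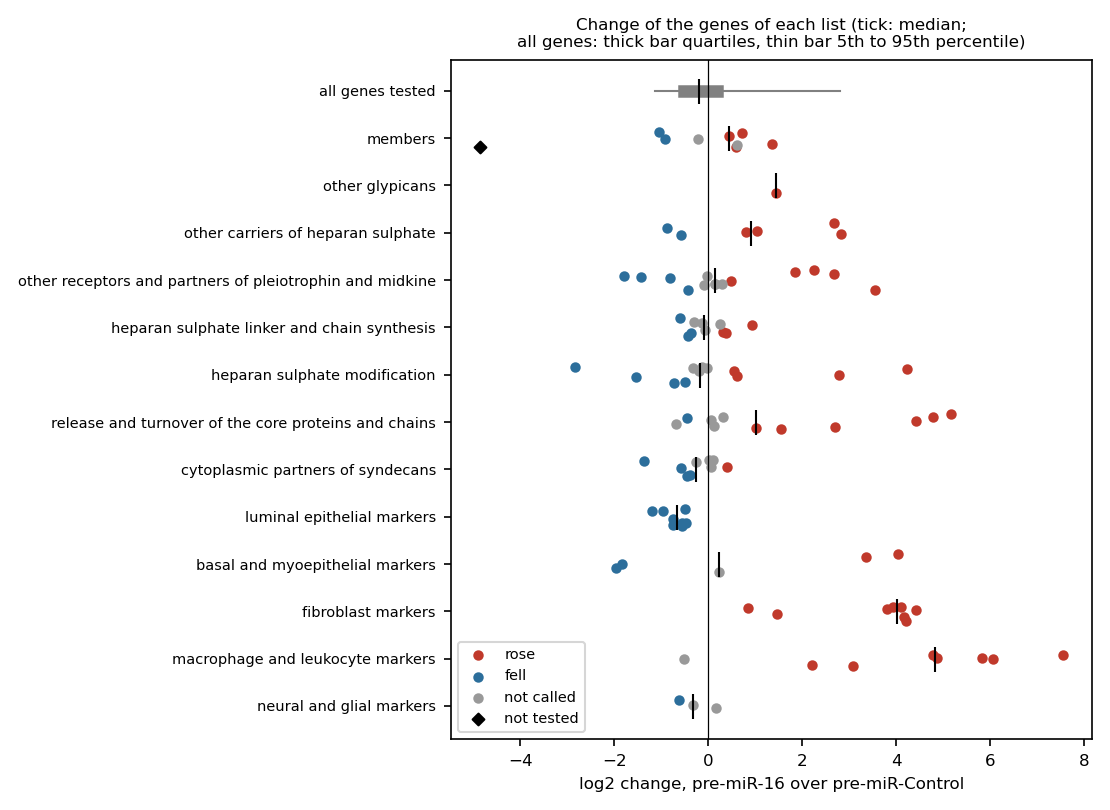
Log2 change, pre-miR-16 over pre-miR-Control (horizontal axis), of every measured gene in the lists of related genes and cell type markers, coloured by call, with the list median as a tick and all 16702 genes as a bar. The median is 1.01 for release and turnover genes and 4.02 for fibroblast markers, beside -0.20 for all genes, and Ptn lies at -4.86.

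The genes whose profile was most like that of Ptn over the 6 arrays were Ltk, Vps37d, Bcl2l14, Samd14 and Arsb, with a Pearson r of 0.998 to 0.999. These are the 5 highest r among all tested genes with a RefSeq symbol, given as a description, and r is high for any gene that separates the 2 groups. Ltk, a receptor tyrosine kinase related to Alk, had levels of -1.54, -0.65 and -1.60 in pre-miR-16 replicates against 0.64, 0.58 and 0.36 in pre-miR-Control replicates. It was highest on replicate 2 among the pre-miR-16 arrays, a pattern that the choice of genes by their likeness to Ptn fixes.

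Bcl2l14, a protein of the Bcl-2 family, had 0.61, 1.47 and 0.55 in pre-miR-16 replicates against 2.56, 2.58 and 2.34 in pre-miR-Control replicates. Arsb, the lysosomal sulphatase of dermatan and chondroitin sulphate, had -2.82, -1.94 and -2.82 in pre-miR-16 replicates against -0.59, -0.67 and -0.89 in pre-miR-Control replicates. In both, as in Vps37d (a subunit of the ESCRT-I sorting complex) and Samd14, pre-miR-16 replicate 2 was the highest of its group, as that choice also fixes. The changes of the 5 genes were -1.79 for Ltk, -1.80 for Vps37d, -1.61 for Bcl2l14, -1.22 for Samd14 and -1.81 for Arsb. All were smaller than the -4.86 of Ptn, which its choice as the largest fall fixes.

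**Figure D4:**
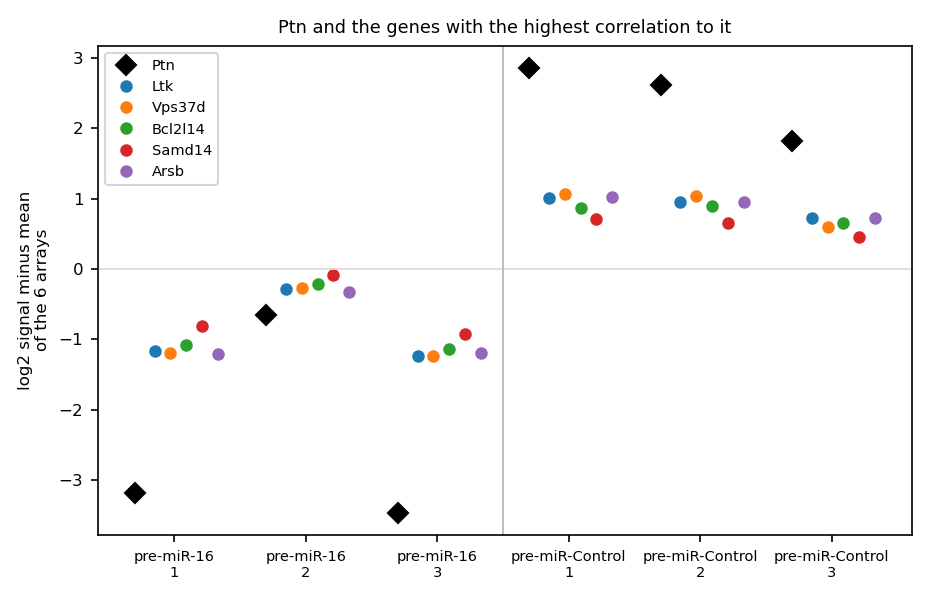
Log2 signal minus the mean over the 6 arrays (vertical axis) of Ptn (black diamonds) and of the 5 genes with the highest correlation to it (circles), by array, pre-miR-16 left of pre-miR-Control. On pre-miR-16 replicate 2 all 6 genes lie above their values on pre-miR-16 replicates 1 and 3.

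Replicate 2 of the pre-miR-16 cultures stood apart in Ptn, Sdc1 and Sdc4, in the direction of the pre-miR-Control group for Ptn and Sdc1 and away from it for Sdc4. It was also the highest of its group in Gpc4, by 0.37 over the mean of the other two, and in Sdc3, by 0.28, where those differed by 0.13 and 0.06, and in both it lay further from the pre-miR-Control group. In Gpc3 it was 0.26 above that mean, in Sdc2 0.20, in Mdk 0.14 and in Gpc1 0.07. The fibroblast markers had summed levels of 324, 380 and 291 times the 75th percentile in pre-miR-16 replicates 1 to 3, and the macrophage markers 208, 242 and 181 times. Both sums were highest on replicate 2 as well, and that of the macrophage markers follows mostly Lyz2. The part of these markers in the values of replicate 2 was not tested. Which culture is replicate 1 and which is replicate 2 is not settled, since the deposited log2 columns of these replicates each follow the other's scanner file.

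RefSeq (GRCm38.p6) gave promoter windows, 250 bases before to 50 after the start, for 6 of the 9 genes: Ptn, Sdc1, Sdc3, Sdc4, Gpc3 and Gpc4. Those of Ptn (chr6:36810130-36810429, minus strand) and Sdc1 (chr12:8771146-8771445, plus strand) are shown because both genes were lower in pre-miR-16 cultures and both highest on replicate 2 within that group. Capitals mark matches, on either strand, to GGGCGG, the GC box, and to CCAAT, the CCAAT box.
Ptn: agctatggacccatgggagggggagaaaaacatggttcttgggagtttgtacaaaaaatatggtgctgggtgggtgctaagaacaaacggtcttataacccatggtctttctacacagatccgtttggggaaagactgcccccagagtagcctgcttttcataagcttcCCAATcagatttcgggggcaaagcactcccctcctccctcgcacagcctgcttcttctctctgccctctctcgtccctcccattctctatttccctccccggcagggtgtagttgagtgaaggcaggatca
Sdc1: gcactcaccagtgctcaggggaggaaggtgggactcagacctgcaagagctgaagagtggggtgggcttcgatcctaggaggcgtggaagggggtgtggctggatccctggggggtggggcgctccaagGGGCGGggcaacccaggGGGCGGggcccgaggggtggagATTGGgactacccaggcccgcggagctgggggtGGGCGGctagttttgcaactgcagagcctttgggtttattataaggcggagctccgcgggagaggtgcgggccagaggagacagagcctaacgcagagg
GGGCGG was found 0 times in the Ptn window and 3 times in that of Sdc1. The windows of Sdc3, Sdc4, Gpc3 and Gpc4 held it 3, 4, 4 and 1 times. It was in 5 of the 6 windows, and in 35.7% of the 32851 windows of all genes. CCAAT was in 3 of the 6, those of Ptn, Sdc1 and Gpc3, and in 37.4% of all. TATAAA was in 0 of the 6 and in 13.6% of all. In the Ptn and Sdc1 windows no match overlapped another, and a match is a description of the sequence only.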

How the data were processed

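Total RNA of 6 cultures, labelled with Cy3, was hybridised to single-colour Agilent mouse arrays. The deposited scanner files hold spot intensity, background-subtracted and detrended within each array by Agilent Feature Extraction 9.5.3.1, per the file headers, and not scaled between arrays. Their flags for spots above background, outliers and saturation were written by the same program, per the file headers. Deposited log2 values, 1 per probe and sample and with no normalization method stated in the labels used here, served as an alternative. The medians of the 6 columns were 6.79 to 6.81. The columns for replicates 1 and 2 of pre-miR-16 each followed the other's scanner file (Spearman 0.965 and 0.970, against 0.946 and 0.944 with their own).

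In R 4.3.3 with version 1.17.8 of data.table, 43379 spots per array remained without controls, outlier spots (74 to 113) were dropped, spots of a probe were averaged as log2, and the array's 75th percentile was subtracted. Kept were probes with at least 0.5 of their spots well above background in each of the 3 cultures of a group, which left 23827 (4 more with a missing value were dropped). The array's annotation is for mm7. Of all probes, 22951 were named by RefSeq accession, 6659 by a current symbol and 11564 by the file. The brightest probe stood for a gene. limma 3.58.1 (lmFit, eBayes) gave adjusted p-values over all genes. On simulated data for this comparison, run on 16702 genes, 100 genes were changed by 1 on the log2 scale and 100 by 2. The code recovered 58% and 84% of them, with 3 unchanged genes called. In the data 49.1% of genes were called, a far larger share, so this recovery does not give the sensitivity of the comparison.

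Where no array of a group was well above background, the bound on the fold sets the mean of the bright group against, per array of the dim group, the higher of the lowest signal among probes well above background and the signal of the probe itself. Apart from choosing the brightest probe of a gene and summing the markers of a cell type, levels of different probes were not compared. The p-values speak for these 6 cultures. The genes named are the 9 members, per list the called genes with the 3 smallest p, and the 5 genes most like Ptn. Alk, Ptprz1, Itgb3, Itgb1, Nrp1, Papss2, Mmp7 and the cell type markers named singly were added after their values were seen. The members and lists were chosen with earlier results of these data known. Alternatives were other scalings, background correction, filters, probe summaries, variance models, blocks and each array left out, and a block in the order of the log2 columns was added after the data were seen.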

Additional observations from a re-analysis of the deposited data

How the results depend on the processing

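Under 20 alternatives, 150 of 160 values of the 8 genes other than Ptn kept their direction and their side of the threshold, 7 lost a call (Sdc2 and Sdc3), 2 gained one (Gpc3) and 1 turned: Sdc4 was 0.17 with spike-in scaling. Sdc2 and Sdc3 lost theirs with the mean of the probes, where 2 of the 8 genes rose, and the other 5 losses are those of Sdc2 given above. Ptn was chosen for its fall in these same arrays, so its direction under the alternatives is a description and no support. Its -4.86 could not move with no filter on dim probes, with the mean of probes or with another variance model. Ptn was lower in pre-miR-16 cultures under the 19 alternatives that gave it a value, from -5.75 to -3.38, with -3.45 under normexp and -3.38 from the deposited log2 table. It was not measured when probes had to be well above background on all 6 arrays. The count of called genes was 4687 with spike-in scaling (3658 rises and 1029 falls, so 78.0% were rises, against 32.5%), in place of 8197, and the cause of the drop was not tested. Leaving out 1 array at a time gave 5700 to 9180 called genes, 3 to 4 rises and 2 falls each time among the 8 genes, and a change of Ptn from -5.75 to -4.35. Across genes, the deviations of same-numbered samples from their group means had correlations of -0.088, -0.026 and -0.003. In the order of the log2 columns they were 0.063, 0.022 and -0.003. These values show no pairing in either order, but which culture is replicate 1 or 2 is open, so pairing by replicate number is not settled. With the number as a replicate block 6529 genes were called, and among the 8 genes 4 rose and 2 fell. With slide as a block 6009 were called. Calls of the lists of related genes moved by at most 3 in a direction. Luminal markers had 2 falls in place of 8 with spike-in scaling, and macrophage and leukocyte markers 3 rises in place of 7 with probes well above background on all 6 arrays. Dim probes are limited by their signal over background. Among them were Ptn in pre-miR-16 cultures, the dimmer Mdk probe in pre-miR-Control cultures, and Gpc3. The amount of spike-in RNA added per sample is not known here.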
